A study of Mus musculus with 10 samples.

Results

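Macrophages live in the lung in more than one place, and 10 genes that mark them or their state are described here in whole mouse lung. They were taken by symbol from the deposited expression table: Arg1, Arg2, Mrc1, Marco, Msr1, Fabp4, Pparg, Adgre1, Cd68 and Mmp12. All 10 were found, on 15 transcript rows, among 24394 gene symbols in the table. The rows of a gene were added to give its level in each library, and the single rows are given where they differ from the sum. Levels are FPKM, fragments scaled to transcript length and to the mapped fragments of the library, so that levels of different genes can be set side by side per length.

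All libraries were made from lung of BALB/c mice, females by the study's methods. The Saline group (n = 3) received saline only. OVA mice (n = 3) were sensitised to ovalbumin with alum by intraperitoneal injection and then challenged with ovalbumin through the nose, a common model of allergic asthma. Herb mice (n = 4; Herbal treatment in the labels) had the same sensitisation and challenge and were given DSE, an ethanol extract of Descurainia sophia seeds, by mouth. The OVA and Herb mice therefore share the allergen, and no group received the extract alone. An age stands in the study's methods and not in the labels, and is not repeated here. The methods describe lavage of the airways for cell counts but do not say whether the sequenced lungs had been lavaged, which would remove airspace macrophages before the RNA was taken. The study's results give as many mice in each group as there are libraries, its methods describe larger groups of animals, and the labels do not tie a library to an animal, so p-values measure the spread between these libraries.

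Resident alveolar macrophages lie in the airspaces, take up surfactant, particles and microbes, and keep their identity under GM-CSF, TGF-beta and the nuclear receptor PPAR gamma. Under IL-4 and IL-13, which signal through the IL-4 receptor and STAT6, macrophages take on the alternatively activated, or type 2, state. Of the resident genes, Marco and Msr1 encode scavenger receptors, Fabp4 a fatty acid carrier and Pparg the nuclear receptor PPAR gamma. Of the type 2 genes, Arg1 encodes arginase 1, which splits arginine to ornithine and urea, Mrc1 the mannose receptor CD206, and Mmp12 macrophage elastase. Arg2 encodes the mitochondrial arginase, which many cell types make. Adgre1 encodes F4/80 and Cd68 macrosialin, 2 general macrophage markers. Mrc1 is also made by resident alveolar macrophages and by lymphatic and other endothelium, Fabp4 and Pparg by capillary endothelium and fat, and Cd68 marks the lysosomes of phagocytes in general.

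The promoters of Mmp12 and Cd68 are shown because their genes stood at opposite ends of the deposited data, Mmp12 highest in the asthmatic groups and Cd68 highest in Saline, and because both hold the same motif. Mmp12 is shown at the downstream of its 2 RefSeq starts. Each run covers 250 bases before and 50 after the RefSeq start (assembly GRCm38.p6, 300 bases, 5′ to 3′ on the gene's strand), and capitals mark TGANTCA, a motif of AP-1 factors.
Mmp12, chr9:7347124-7347423, plus strand: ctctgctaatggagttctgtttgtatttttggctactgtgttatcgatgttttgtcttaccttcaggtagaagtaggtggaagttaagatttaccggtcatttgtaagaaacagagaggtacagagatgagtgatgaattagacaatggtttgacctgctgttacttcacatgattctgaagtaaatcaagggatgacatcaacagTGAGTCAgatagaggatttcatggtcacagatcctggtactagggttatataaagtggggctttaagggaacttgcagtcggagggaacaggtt
Cd68, chr11:69666121-69666420, minus strand: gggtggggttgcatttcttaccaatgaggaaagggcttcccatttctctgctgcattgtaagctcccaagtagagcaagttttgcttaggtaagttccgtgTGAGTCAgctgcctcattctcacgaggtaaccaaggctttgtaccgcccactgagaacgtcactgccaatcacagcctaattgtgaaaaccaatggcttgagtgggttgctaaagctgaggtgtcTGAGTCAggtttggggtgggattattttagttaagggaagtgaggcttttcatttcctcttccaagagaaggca
The motif begins 44 bases before the start in Mmp12 and 149 and 24 bases before it in Cd68. It was present in 7.81% of all 32851 promoters of the same length, searched on both strands. Of the members, 5 had a promoter in the table, 8 promoters in all (Marco, Mrc1, Pparg, Cd68 and Mmp12). The canonical paired half-sites of STAT6 were in 6.95% of all promoters and the direct repeat of PPAR gamma with its partner RXR in 0.0396%, and neither was in a member's promoter. GAGGAA, a core motif of the myeloid factor PU.1, was in 28.3% of all promoters and in a promoter of each of the 5 members. A match is a description of the letters only.

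The libraries differed in composition, and this touches every level below. From the spacing of the lowest values, the libraries held about 14900000 to 29600000 mapped fragments. Protein-coding rows held 18.5 to 21.3% of all FPKM in Saline, 3.36 to 4.68% in OVA and 8.44 to 13.6% in Herb, while Rn45s, the ribosomal RNA precursor, lay at 1201 to 1386 FPKM in Saline, 10014 to 13531 in OVA and 3230 to 7019 in Herb. The upper quartile (75th percentile) of the 11205 gene sums tested, those with a mean of at least 1 FPKM, was 9.20 to 9.28 FPKM in Saline, 3.68 to 4.58 in OVA and 5.79 to 7.43 in Herb. The median log2 fold change of all tested genes was -0.75 for OVA against Saline, 0.48 for Herb against OVA and -0.27 for Herb against Saline. Each comparison is therefore given on 2 scales, on FPKM as deposited and after each library was rescaled to a common upper quartile (below, rescaled), which brought those medians to 0.07, 0.01 and 0.09. As deposited, 7578 of the 11205 genes had groups without overlap in OVA against Saline, 7054 of them lower. In Herb against OVA there were 5628, 5555 of them higher, and in Herb against Saline 4883, 4105 of them lower. After rescaling these were 6108, 2520 and 4403. Groups without overlap are to be read against these numbers. Some genes of every cell were listed at 0, as Gapdh was in 9 of the 10 libraries, and Csf1r, the receptor that macrophages need to survive, had 0 in the 7 asthmatic libraries and 0.0873 to 0.158 FPKM in Saline. A value of 0 can thus be a failed estimate. In whole lung, fewer cells of a type and less RNA per cell cannot be told apart.

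Among the resident genes, Marco (chr1:120474538-120505024, GRCm38.p6) was low everywhere. Its FPKM was 1.03, 0.46 and 0.194 in the Saline libraries, 0.285, 0.664 and 0.083 in OVA, and 0.617, 1.37, 0.197 and 0.261 in Herb. The groups overlapped fully, and the level rested on 3.26 to 39.3 fragments a library by the depth estimate. With a mean below 1 FPKM over all libraries Marco was not in the main test. Fitted without the filter, its log2 fold change was -0.20 ± 0.29 (SE) for OVA against Saline and 0.23 ± 0.28 for Herb against OVA (limma, adjusted p = 0.645 and 0.602). A difference in this scavenger receptor was not detectable at this depth.

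Fabp4, the fatty acid carrier, had 2.70, 9.80 and 4.68 FPKM in Saline, 0.678, 1.83 and 1.86 in OVA, and 2.55, 2.25, 2.58 and 2.54 in Herb. Every Saline library lay above every Herb library, and every Herb library above every OVA library, although the Saline values spread widely. The mean fell from 5.73 ± 3.67 (SD, n = 3) to 1.45 ± 0.672 (n = 3) in OVA, or by 1.36 on the log2 scale (SE 0.35, adjusted p = 0.0084). After rescaling the groups overlapped and the change was -0.56 ± 0.35, with an adjusted p of 0.228. In Herb the mean was 2.48 ± 0.157 (SD, n = 4), and neither its difference from OVA (0.54 ± 0.33, adjusted p = 0.204) nor from Saline (-0.81 ± 0.33, adjusted p = 0.0988) passed the test. Leaving out Saline replicate 1 brought the fall against Saline to -1.17, with an adjusted p of 0.0398.

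Capillary endothelium also makes Fabp4, so its markers are given beside it. All 11 endothelial markers were tested, and 8 fell and none rose in OVA against Saline as deposited, where 57.9% of all genes fell. Their median log2 fold change was -1.83, against -0.75 over all genes. After rescaling 5 of the 11 fell, where 17.2% of all genes did, and Gpihbp1, named below, was not among them (adjusted p = 0.213). Their summed level was 574 to 620 FPKM in Saline, 120 to 199.9 in OVA and 250 to 443 in Herb. The markers of largest change were Ramp2, a receptor partner (-3.57 ± 0.47), Cdh5, VE-cadherin (-3.25 ± 0.40), Kdr, a VEGF receptor (-2.31 ± 0.28), and Gpihbp1, which holds lipoprotein lipase on capillaries (-2.20 ± 0.64). Fabp4 stood at 2.22, 9.75 and 9.44% of Pecam1, a marker of all endothelium, in Saline, at 2.13, 4.97 and 8.52% in OVA, and at 2.63 to 5.79% in Herb. The groups overlapped in this ratio. The part of endothelium in the fall of Fabp4 was not tested. Of the adipocyte markers, 1 of 7 reached the filter, Lipe, hormone-sensitive lipase, at 10.8 ± 1.86 FPKM in Saline, 6.0 ± 0.563 in OVA and 9.23 ± 1.44 in Herb. It fell in OVA as deposited (-0.74 ± 0.17, adjusted p = 0.00403) and had 0.29 ± 0.16 after rescaling (adjusted p = 0.165).

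Pparg, the factor of alveolar identity, lay at 3.11, 3.83 and 2.49 FPKM in Saline, 2.13, 2.96 and 1.98 in OVA, and 3.88, 3.48, 2.06 and 2.69 in Herb. The groups overlapped as deposited, with a log2 fold change of -0.30 ± 0.20 for OVA against Saline (adjusted p = 0.225). After rescaling it rose in OVA by 0.54 ± 0.16 (adjusted p = 0.0251), and the OVA libraries no longer overlapped Saline. The direction of Pparg thus depended on the scaling. Its 4 transcript rows shared the reads unevenly. NM_011146 ran from 0.0504 to 3.06 FPKM within Saline alone and from 0.0261 to 2.99 within Herb, a wider spread than that of the sums.

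Msr1, scavenger receptor A, was steady in Saline at 1.07, 1.05 and 1.19 FPKM, reached 1.07, 1.95 and 1.37 in OVA, and 1.55, 2.30, 1.96 and 2.89 in Herb. Every Herb library lay above every Saline library. It rose in Herb against Saline by 0.58 ± 0.17 on the log2 scale (adjusted p = 0.0369) and by 0.80 ± 0.16 after rescaling (adjusted p = 0.0197). The call as deposited held in 4 of the 10 fits that left out 1 library. It ended without any 1 of the Saline libraries (adjusted p = 0.0811 to 0.101), without Herb replicate 2, 3 or 4 (adjusted p = 0.0614 to 0.0832), and with no filter on low values (adjusted p = 0.0631). In OVA against Saline the change was 0.21 ± 0.18 as deposited (adjusted p = 0.335) and 0.86 ± 0.17 after rescaling (adjusted p = 0.00504), where all OVA libraries lay above Saline. Of its 2 rows, NM_031195 held most of the level. The other, NM_001113326, was listed at 0 in all 3 Saline libraries and stood at 0.117 to 0.731 FPKM in OVA and 0.195 to 0.48 in Herb. If those values of 0 hold, then against the level that 3 fragments over a Saline library would give on average, its mean was at least 3.97-fold higher in OVA and at least 3.24-fold higher in Herb, on 3.4 to 24.3 fragments a library. Of the 3 resident genes tested on deposited FPKM (Fabp4, Pparg and Msr1), only Msr1 was called higher in a comparison and only Fabp4 lower.

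**Figure D1:**
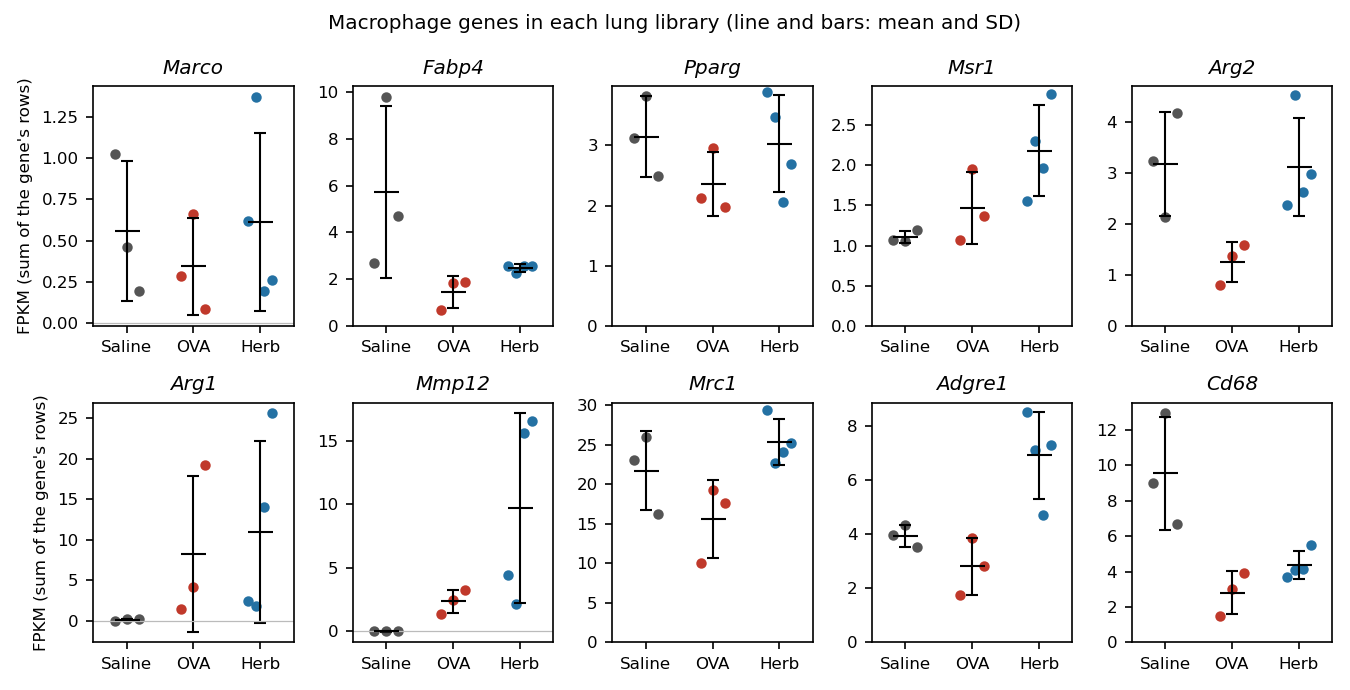
FPKM of each gene, summed over its rows, in each library of the Saline (grey, n = 3), OVA (red, n = 3) and Herb (blue, n = 4) groups, with the mean and SD in black. Arg1 and Mmp12 sit near 0 in Saline and are spread widely in OVA and Herb, while Cd68 and Fabp4 are highest in Saline.

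Among the type 2 genes, Mmp12 (chr9:7344397-7360461, GRCm38.p6) had the largest fold of means over Saline, where it was at or near 0. On the log2 scale of FPKM + 1, Arg1 changed more in OVA (2.49 against 1.71). Macrophage elastase had 0, 0.0185 and 0 FPKM in the Saline libraries, 1.40, 2.502 and 3.23 in OVA and 4.48, 2.12, 15.7 and 16.6 in Herb. All Saline values lay at or under the level of 3 fragments, 0.0446 FPKM on average over the group, so, if the values of 0 hold, the mean of this named row was at least 53.3-fold higher in OVA and at least 218-fold higher in Herb. On the log2 scale of FPKM + 1, Mmp12 rose by 1.71 ± 0.60 in OVA (adjusted p = 0.0334) and by 3.06 ± 0.56 in Herb (adjusted p = 0.0101) against Saline. After rescaling the changes were 2.16 ± 0.65 (adjusted p = 0.0276) and 3.03 ± 0.61 (adjusted p = 0.0191). The direction was the same in every setting tried. On gene sums, the call in Herb against Saline held in all 10 fits that each left out 1 library, and that in OVA against Saline in 5 of them. It ended without any 1 of the Saline libraries (adjusted p = 0.0705 to 0.0734) and without OVA replicate 2 or 3 (adjusted p = 0.0764 and 0.0942), and also with no filter on low values (adjusted p = 0.0591). Over all settings of the gene sums the adjusted p of this rise ran from 0.000224 to 0.0942. Among single rows, the call in Herb against Saline ended without any 1 of the Saline libraries or without Herb replicate 3, where no member row was called.

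Herb and OVA overlapped in Mmp12, with Herb replicates 3 and 4 far above the others. The mean was 9.70 ± 7.46 FPKM (SD, n = 4) against 2.37 ± 0.922 (n = 3), a log2 difference of 1.36 ± 0.56 that did not pass the test (adjusted p = 0.0765) and that was 0.87 ± 0.61 after rescaling (adjusted p = 0.388). Without Herb replicate 2, the lowest of the group, it was 1.83 with an adjusted p of 0.0224. Beside Mmp12 lie 3 unnamed assembled models in the table that share its locus number. With them added, a choice made after the values were seen, the sums were 0.327, 0.311 and 0.347 FPKM in Saline, 2.02, 8.02 and 18.2 in OVA, and 8.85, 5.38, 32.4 and 30.9 in Herb. On these sums the mean was 28.7-fold higher in OVA and 59.0-fold higher in Herb than in Saline, below the bounds of the named row. Part of the level at this locus was thus outside that row.

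Arg1 (chr10:24915207-24927470), the arginase of type 2 activation, was at 0, 0.213 and 0.179 FPKM in Saline, about 5 to 7 fragments where it was above 0 (5.47 and 6.80). It stood at 1.43, 4.14 and 19.2 in OVA and at 2.46, 1.77, 14.0 and 25.6 in Herb. Every asthmatic library lay above every Saline library, and within each asthmatic group the highest library exceeded the lowest more than 10-fold. Beside Arg1 lie 2 unnamed assembled models. The first had 0.541, 0.249 and 0.427 FPKM in the Saline libraries, more than the named row. With both added, after the values were seen, Saline had 0.541, 0.462 and 0.613 FPKM. OVA then had 1.54 to 27.6 and Herb 2.38 to 28.0, still above Saline. The mean was then 23.9-fold higher in OVA and 23.5-fold higher in Herb than in Saline. The changes given next are of the named row. Arg1 rose by 2.49 ± 0.96 in OVA (adjusted p = 0.0471) and by 2.80 ± 0.90 in Herb (adjusted p = 0.0475) against Saline. After rescaling these were 3.04 ± 1.01 (adjusted p = 0.0397) and 2.82 ± 0.95, the second no longer past the threshold (adjusted p = 0.0738). Both calls were close to the threshold. Each held in 4 of the 10 fits that left out 1 library. For OVA the adjusted p rose to 0.0878 to 0.103 without any 1 of the Saline libraries, to 0.0757 and 0.16 without OVA replicate 2 and 3, and to 0.0538 without Herb replicate 3, and it was 0.08 with no filter on low values. Over all settings it ran from 0.00797 to 0.16. For Herb it rose to 0.108 to 0.117 without any 1 of the Saline libraries, to 0.061 without OVA replicate 2, and to 0.113 and 0.1 without Herb replicate 3 and 4. Between Herb and OVA the difference was 0.31 ± 0.90 as deposited (adjusted p = 0.796) and -0.21 ± 0.95 rescaled (adjusted p = 0.911). With a standard error of this size, a difference of 1 log2 unit in either direction was not detectable.

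Mrc1 (chr2:14229414-14332023), the mannose receptor, was the member of highest level per length in each group, and its pattern was unlike that of Arg1 and Mmp12. It lay at 23.1, 26.0 and 16.2 FPKM in Saline, 10.1, 19.3 and 17.7 in OVA, and 29.4, 22.7, 24.1 and 25.3 in Herb. As deposited, OVA overlapped Saline and every Herb library lay above every OVA library. The change in OVA against Saline was -0.47 ± 0.26 (adjusted p = 0.14), and Mrc1 rose in Herb against OVA by 0.70 ± 0.24 (adjusted p = 0.0404). After rescaling the first was 0.63 ± 0.23 (adjusted p = 0.0513) and the second 0.06 ± 0.21 (adjusted p = 0.893). The rise in Herb also ended without Saline replicate 1 (adjusted p = 0.0552), without OVA replicate 1, the lowest library (0.43, adjusted p = 0.128), and without any 1 of the Herb libraries (adjusted p = 0.0574 to 0.0949). Lymphatic endothelium also makes Mrc1. All 4 of its tested markers fell in OVA as deposited, where 57.9% of all genes did, among them Pdpn, podoplanin (-3.01 ± 0.34), and Flt4, VEGF receptor 3 (-1.35 ± 0.26). After rescaling 2 of the 4 fell, and Flt4 had -0.36 ± 0.24 (adjusted p = 0.255). The summed level of the list's 6 genes was 51.4 to 62.4 FPKM in Saline, 6.03 to 11.4 in OVA and 11.9 to 24.2 in Herb. Most of it in Saline was Pdpn, at 30.5 to 46.8 FPKM. Under the filter, Prox1 overlapped between Saline (0.236 to 0.277 FPKM) and OVA (0.184 to 0.300). Reln was lower in every OVA library (0.159 to 0.274) than in Saline (0.856 to 1.09). The part of lymphatic endothelium in the level of Mrc1 was not tested.

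The background differs sharply between directions, and the calls of the members and of every gene list are to be read against it. As deposited, 3.28% of the 11205 genes tested were higher and 57.9% lower in OVA than in Saline. Of the 9 members tested, 2 were called higher, Arg1 and Mmp12, and 3 lower, Arg2, Cd68 and Fabp4. Their median log2 fold change was -0.41, against -0.75 over all genes. After rescaling, 24.1% of all genes were higher and 17.2% lower, and 4 members were called higher, Arg1, Mmp12, Msr1 and Pparg, and none lower. Among genes past the filter, a rise of Arg1 and Mmp12 was thus called on both scales, while no fall of a member was called after rescaling. With means of 0.131 and 0.00618 FPKM in Saline, Arg1 and Mmp12 passed the filter only through the OVA and Herb libraries. With no filter, neither rise was called as deposited (limma, adjusted p = 0.08 and 0.0591). Among single rows, 44.2% of the 30194 rows tested were called in either direction, and of the member rows 4 were: Mmp12 higher, and Arg2, Cd68 (NM_001291058) and Fabp4 lower. The row of Arg1 missed the threshold there (adjusted p = 0.0596).

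In Herb against OVA, 44.0% of all genes were higher and 0.446% lower as deposited, and 3 members were called, all higher: Adgre1, Arg2 and Mrc1. That is 3 of 9, no larger a share than the background. After rescaling 0.348% of all genes were higher and 0.455% lower, and limma called no member. Adgre1 was the only member with an unadjusted p under 0.05 there. The rows gave 32.4% called overall and 2 member rows, those of Adgre1 and Arg2. In Herb against Saline, 3.32% were higher and 22.7% lower as deposited, with Arg1, Mmp12 and Msr1 called higher and Cd68 lower. Rescaled, 10.6% of all genes were higher and 5.11% lower, and Mmp12, Msr1 and Adgre1 were called higher. Of the rows, 8.09% were called, and 1 of them, that of Mmp12, was a member's. The comparisons share libraries and are not independent of each other.

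**Figure D2:**
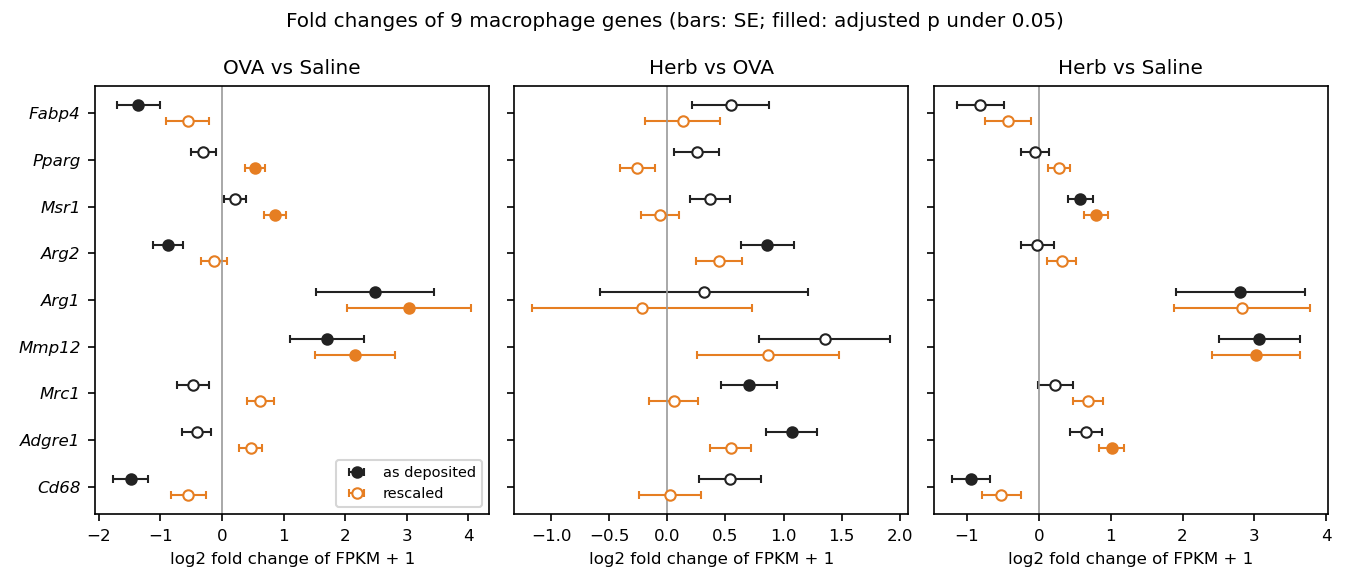
Log2 fold change of FPKM + 1 with its SE for 9 members in each comparison, on deposited FPKM (black) and after rescaling to a common upper quartile (orange); filled points have an adjusted p under 0.05. Arg1 and Mmp12 lie right of 0 against Saline on both scales, while Mrc1, Pparg and Adgre1 change side in OVA against Saline.

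Arginase 2 went another way than arginase 1. Arg2 had 3.25, 2.13 and 4.18 FPKM in Saline, 0.812, 1.37 and 1.59 in OVA, and 2.37, 4.53, 2.63 and 2.98 in Herb. As deposited, OVA lay below both other groups without overlap, and Saline and Herb overlapped. After rescaling OVA overlapped both. Arg2 fell by 0.88 on the log2 scale in OVA (SE 0.24, adjusted p = 0.0113) and rose in Herb against OVA by 0.86 ± 0.23 (adjusted p = 0.0158). After rescaling both were smaller, -0.12 ± 0.22 (adjusted p = 0.671) and 0.44 ± 0.20 (adjusted p = 0.196), and the rise also ended without OVA replicate 1 (adjusted p = 0.0627). On named rows, without the unnamed models, Arg1 was 0, 10 and 4.29% of Arg2 within a library in Saline, 177, 302 and 1211% in OVA, and 104, 39.1, 533 and 858% in Herb. The ratio of the arginases, which no scaling of a library can change, was higher in every asthmatic library than in every Saline library.

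Other genes that use arginine were measured beside the arginases. Of 8 on the list, 6 were tested, 0 rose in OVA against Saline by limma as deposited and 2 fell. These were Oat, ornithine aminotransferase, which takes ornithine on toward proline and glutamate (-1.74 ± 0.26), and Asl, argininosuccinate lyase, which makes arginine (-0.48 ± 0.12). After rescaling Oat still fell (-0.63 ± 0.19, adjusted p = 0.0254) and Asl rose (0.39 ± 0.09, adjusted p = 0.00928). Nos2, the inducible nitric oxide synthase that competes with arginase for arginine, stayed under the filter, at 0.127 to 0.351 FPKM in Saline, 0.357 to 1.26 in OVA and 0.251 to 0.759 in Herb.

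The general macrophage markers also parted. Cd68 fell from 9.02, 12.98 and 6.68 FPKM in Saline to 1.49, 3.03 and 3.91 in OVA, and stood at 3.69, 4.11, 4.13 and 5.51 in Herb. As deposited, Saline lay above both other groups without overlap, and after rescaling it overlapped both. The log2 fold change was -1.48 ± 0.28 in OVA (adjusted p = 0.00165) and -0.95 ± 0.27 in Herb (adjusted p = 0.0317). The fall in OVA was called in all 10 fits of gene sums that left out 1 library, yet after rescaling it was -0.54 ± 0.29 (adjusted p = 0.156), and that in Herb -0.52 ± 0.27 (adjusted p = 0.21). The fall in Herb also ended without Saline replicate 1 or 2 or without Herb replicate 1, 2 or 3 (adjusted p = 0.052 to 0.112).

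Adgre1 had 3.95, 4.33 and 3.52 FPKM in Saline, 1.74, 3.84 and 2.83 in OVA, and 8.52, 7.11, 4.70 and 7.29 in Herb. As deposited, every Herb library lay above all others. After rescaling Herb overlapped OVA and still lay above Saline. F4/80 transcript rose in Herb against OVA by 1.07 ± 0.22 (adjusted p = 0.00788), called in all 10 fits of gene sums that left out 1 library, and by 0.54 ± 0.18 after rescaling (adjusted p = 0.102). Among single rows, no member was called there without OVA replicate 1. Against Saline it was 0.66 ± 0.22 higher (adjusted p = 0.0552), and 1.01 ± 0.18 higher after rescaling (adjusted p = 0.014), where the call passed. It also passed as deposited without OVA replicate 1 or 2 or Herb replicate 3 (adjusted p = 0.0318, 0.0432 and 0.0386). In OVA against Saline the deposited value was -0.41 ± 0.24 and the rescaled one 0.47 ± 0.19 (adjusted p = 0.162 and 0.0724).

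Set against each other within a library, Cd68 was 228, 300.1 and 190% of Adgre1 in Saline (189.7 in the lowest), 85.9, 78.8 and 138% in OVA, and 43.4, 57.9, 87.8 and 75.5% in Herb. The ratio was lower in every asthmatic library than in every Saline library. Cd68 is a lysosomal protein, and the lysosome genes of phagocytes are therefore given with it. Of 10 tested, 7 fell and 0 rose in OVA against Saline as deposited, where 57.9% of all genes fell. The median log2 fold change was -1.68, against -0.75 over all genes. After rescaling 5 fell, where 17.2% of all genes did. The list was led by Lyz1 (-3.15 ± 0.52) and Lyz2 (-3.10 ± 0.55), the lysozymes, and Lamp1 (-2.99 ± 0.50) and Lamp2 (-2.33 ± 0.27), lysosomal membrane proteins. Alveolar type 2 epithelium also makes Lyz1 and Lyz2. In Herb against OVA, 8 of the 10 rose as deposited, where 44.0% of all genes did, and none after rescaling by limma.

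The comparison of resident with type 2 genes was made within each library, where a scaling factor has little effect. The mean log2(FPKM + 1) of Arg1, Mrc1 and Mmp12 minus that of Marco, Fabp4, Pparg and Msr1 was 0.03, -0.14 and 0.02 in Saline, 1.05, 1.39 and 2.43 in OVA, and 1.52, 0.85, 2.88 and 3.03 in Herb. Every asthmatic library lay above every Saline library, and Herb spanned the OVA range and reached beyond it on both sides. The group means were -0.03 ± 0.09 (SD), 1.63 ± 0.72 and 2.07 ± 1.06. Without Mrc1, the means were -1.49 ± 0.18, 1.02 ± 0.95 and 1.51 ± 1.52. Without Fabp4 and Pparg, which endothelium and fat share, they were 0.72 ± 0.20, 1.95 ± 0.82 and 2.45 ± 1.1. The order of the group means was the same each time. Arg1 and Mmp12, both near 0 in Saline, were in each of these scores, and a score without them was not taken. Mrc1, the other type 2 member, overlapped between OVA and Saline on both scales. No test was run on this difference, since it is a score over chosen genes.

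Ratios of single members were also taken within each library, on named rows without the unnamed models. Arg1 was 0, 0.82 and 1.11% of Mrc1 in Saline, 14.3, 21.5 and 109% in OVA, and 8.38, 7.80, 58.3 and 101% in Herb. Mmp12 was 0, 0.143 and 0% of Cd68 in Saline, 93.4, 82.6 and 82.5% in OVA, and 121, 51.7, 379 and 301% in Herb (300.7 in replicate 4). The 3 OVA libraries were close together in the ratio of Mmp12 to Cd68 and far apart in that of Arg1 to Mrc1. Msr1, a resident gene, was 4.63, 4.05 and 7.33% of Mrc1 in Saline, 10.6, 10.1 and 7.77% in OVA, and 5.28 to 11.4% in Herb. On its summed rows it thus moved the way of the type 2 genes in OVA. The sum includes NM_001113326, listed at 0 in every Saline library, which can be a failed estimate. The main row, NM_031195, overlapped between the groups, at 1.052 to 1.187 FPKM in Saline and 0.5709 to 1.255 in OVA. Its own ratio to Mrc1 was not taken. Fabp4 went the other way from the Msr1 sum. It was 11.7, 37.7 and 28.9% of Mrc1 in Saline, 6.74, 9.48 and 10.5% in OVA and 8.68 to 10.7% in Herb. On summed rows, Msr1 and Fabp4 thus did not move together against Mrc1.

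**Figure D3:**
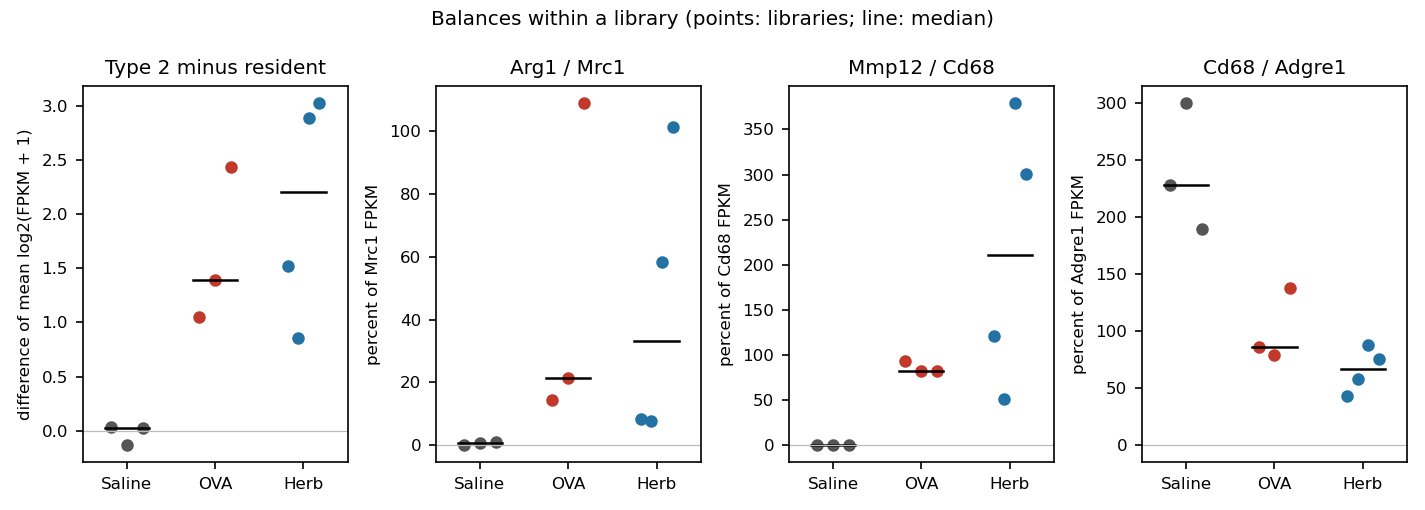
Left, mean log2(FPKM + 1) of 3 type 2 genes minus that of 4 resident genes in each library; then Arg1 as a percent of Mrc1, Mmp12 as a percent of Cd68, and Cd68 as a percent of Adgre1, with the group median as a line. The first 3 measures are higher and the last is lower in every OVA and Herb library than in every Saline library.

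Per length, Mrc1 was the highest member in Saline at 21.8 ± 5.03 FPKM (SD, n = 3), above Cd68 at 9.56 ± 3.19 without overlap. The next 4, Fabp4, Adgre1, Arg2 and Pparg, lay between 3.14 and 5.73 with overlapping ranges, then came Msr1 at 1.102 ± 0.074, and Marco, Arg1 and Mmp12 were lowest. In OVA the mean order began with Mrc1 at 15.7 ± 4.92, Arg1 at 8.27 ± 9.60 and Cd68 at 2.81 ± 1.22. The ranges of neighbours overlapped down to Mmp12 at 2.37 ± 0.922 and Pparg at 2.36 ± 0.529. In Herb it was Mrc1 at 25.4 ± 2.88, Arg1 at 10.96 ± 11.3 and Mmp12 at 9.70 ± 7.46, each overlapping the next. Arg1 and Mmp12 were thus next to last and last in Saline and the second and the third in Herb, although their spread in Herb was about as large as their means.

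Other genes of the resident programme were measured beside the members. Of 15 on the list, 13 were tested, and as deposited 7 fell and 0 rose in OVA against Saline by limma, with a median log2 fold change of -1.64 against -0.75 over all genes. After rescaling 7 fell and 2 rose, with a median of -0.61 against 0.07. The largest falls were in Lpl, lipoprotein lipase, from 33.9 ± 17.7 to 1.44 ± 1.53 FPKM (-3.85 ± 0.67), Ear1 (-2.88 ± 0.46) and Ear2 (-2.17 ± 0.36), members of the eosinophil-associated ribonuclease family, and Car4, carbonic anhydrase 4 (-2.03 ± 0.24). Rescaled, these were -2.99 ± 0.73, -1.97 ± 0.44, -1.28 ± 0.37 and -0.93 ± 0.18, all past the threshold. Car4 is also made by capillary endothelium, and near-identical copies of the Ear genes can share reads. Siglecf, the sialic acid receptor that marks mouse alveolar macrophages and eosinophils, lay at 4.13, 4.43 and 2.97 FPKM in Saline, 1.02, 1.2 and 0.571 in OVA and 1.88, 2.28, 0.925 and 1.59 in Herb. It fell in OVA on both scales, by 1.33 as deposited (SE 0.22, adjusted p = 0.00078) and by 0.59 rescaled (SE 0.20, adjusted p = 0.0431). Itgax, the integrin CD11c of alveolar macrophages and dendritic cells, did the opposite after rescaling, with 1.94, and was one of the 2 genes that rose there; the other was Olr1, a receptor for oxidised lipoprotein, with 0.84. In Herb against OVA, 4 of the 13 rose as deposited, where 44.0% of all genes did, and 0 after rescaling.

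Of 18 other type 2 activation genes, 15 were tested. As deposited 5 rose and 2 fell in OVA against Saline, with a median of 0.49 against -0.75 over all genes. After rescaling 8 rose and 1 fell, with a median of 1.34 against 0.07. Retnla, which encodes the resistin-like protein FIZZ1 and which airway epithelium also makes, was listed at 0, 0 and 5.61 FPKM in Saline. It stood at 630, 1297 and 4155 FPKM in OVA (629.9 in the lowest) and 1142 to 3771 in Herb. Chil4, a chitinase-like protein of epithelium and macrophages, rose by 4.61 ± 1.28 (adjusted p = 0.0117), and Ccl8, a chemokine of macrophages, by 2.06 ± 0.63 (adjusted p = 0.0182). Tgm2, transglutaminase 2, fell from 77.4 ± 6.87 to 22.2 ± 4.73 FPKM (-1.77 ± 0.21), and by 0.64 after rescaling. Endothelium makes much Tgm2. Against OVA, 3 of the 15 rose in Herb as deposited, among them Chil3, the chitinase-like protein Ym1 (1.74), and 0 after rescaling by limma. Of all genes, 44.0% rose there as deposited.

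The lists differ within one scaling: of the resident genes 7 of 13 fell and 0 rose as deposited, and of the type 2 genes 2 of 15 fell and 5 rose, in a comparison where 57.9% of all genes fell. The difference between the lists was not itself tested, and both hold genes that epithelium or endothelium also make. The filter on the mean over all libraries also bears on these counts. Type 2 genes near 0 in Saline, as Chil4 and Ccl8 were (means of 0.257 and 0.262 FPKM), could pass it only by being higher in OVA or Herb. How much of the difference the filter made was not tested. Of 8 alveolar type 2 epithelial markers, 6 fell as deposited and 5 after rescaling, and their summed level was 3407 to 4459 FPKM in Saline, 477 to 831 in OVA and 1102 to 2012 in Herb. Their part in the changes of the macrophage lists was not tested.

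**Figure D4:**
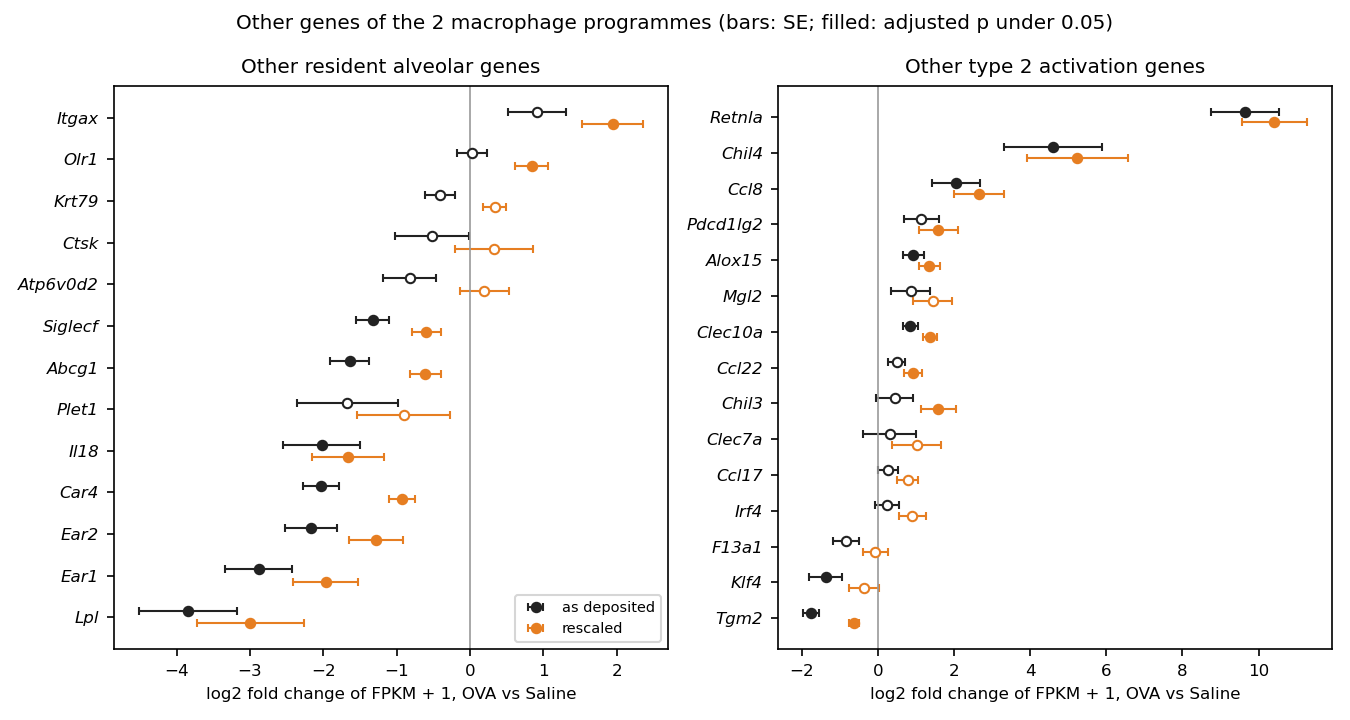
Log2 fold change of FPKM + 1 in OVA against Saline with its SE, for 13 other resident alveolar genes (left) and 15 other type 2 activation genes (right), on deposited FPKM (black) and rescaled (orange); filled points have an adjusted p under 0.05. On the left filled points lie left of 0 except for Itgax and Olr1 after rescaling, and on the right most lie right of 0, with Tgm2 and Klf4 on the left.

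Genes of macrophages outside the airspace were given beside the members. Of 16 on the list, 13 were tested. In OVA against Saline 2 fell as deposited, Lyve1, a hyaluronan receptor that lymphatic endothelium also makes (-2.85 ± 0.48), and Apoe, apolipoprotein E (-2.01 ± 0.33). Both also fell after rescaling (-1.76 ± 0.43 and -0.88 ± 0.26), where C1qa, a complement component (1.23), and Ms4a7 (1.11) rose. In Herb, 4 of the 13 rose against OVA as deposited, where 44.0% of all genes did, and 0 by limma after rescaling.

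The receptors through which type 2 cytokines act, with their kinases and STAT6, gave different calls on the 2 scales. Of 7, 5 were tested, and 3 fell and 0 rose in OVA as deposited: Jak1, the kinase of these receptors (-1.69 ± 0.18), Il13ra1, a chain of the IL-13 receptor (-1.35 ± 0.23), and Stat6 (-1.28 ± 0.23). After rescaling Jak1 fell (-0.69 ± 0.18, adjusted p = 0.0161), while Il13ra1 had -0.39 ± 0.21 (adjusted p = 0.159) and Stat6 -0.29 ± 0.27 (adjusted p = 0.416). Tyk2, another of the receptor kinases, rose after rescaling (0.61). Of 10 growth factors and receptors of macrophages, 8 were tested. As deposited 3 fell and 0 rose in OVA, Tgfbr1 (-2.24 ± 0.58), Tgfbr2 (-1.82 ± 0.29) and Tgfb1 (-1.1 ± 0.30), parts of the TGF-beta system that alveolar macrophages need. After rescaling Tgfbr2 fell and 3 rose, among them Csf1, the factor that maintains macrophages (1.43), and Csf2ra, the GM-CSF receptor alpha chain (1.86). Csf2ra was listed at 0 in Saline replicate 1, which can be a failed estimate, beside 3.18 and 3.09 FPKM in Saline replicates 2 and 3.

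Other blood cells of the lung are given so that the members can be read beside them. Of 9 eosinophil markers 2 were tested, Alox15, a lipoxygenase that type 2 macrophages also make, which rose in OVA (0.93 ± 0.28), and Siglecf. The summed level of the list was 3.23 to 4.92 FPKM in Saline, 3.17 to 4.83 in OVA and 3.29 to 7.95 in Herb. Its genes under the filter differed. Ear6, a granule gene, was at 0 in 9 of the 10 libraries, and Prg3 at 0 in all. Prg2 was at 0 in every Saline library, at 0.8765 to 1.649 FPKM in OVA and at 0 to 2.145 in Herb. Epx, near 0 throughout, was also higher in every OVA library (0.0316 to 0.08575 FPKM) than in Saline (0 to 0.01736). Of 7 neutrophil markers tested 4 fell in OVA as deposited and 0 after rescaling, and S100a8, a calgranulin of neutrophils and monocytes, ran from 30.2 ± 22.7 FPKM in Saline to 2.65 ± 1.00 in OVA. Of all genes, 57.9% fell in that comparison as deposited. Of 3 dendritic cell markers tested 1 rose, Batf3 (1.17 ± 0.35), and 1 fell, Ccr7 (-0.60 ± 0.21), as deposited. After rescaling Batf3 and Zbtb46 rose (1.66 ± 0.38 and 0.68 ± 0.16), and Ccr7 had 0.16 ± 0.20 (adjusted p = 0.54). Of B cell markers 3 of 4 and of T cell markers 2 of 2 tested fell as deposited, among them Ms4a1, CD20 (-1.74 ± 0.36), and Cd3e, a chain of the T cell receptor complex (-1.16 ± 0.23), and 0 of either after rescaling. Their part in the members' changes was not tested.

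The genes most like each member over the 10 libraries, by the mean absolute difference of centred, rescaled log2 values, were as follows. For Arg1 they were Ltf, lactoferrin (0.389), Agr2 of mucous cells (0.396) and Fcgbp, a mucus protein (0.423). These are differences on a scale where Arg1 itself has a standard deviation of 1.87. For Mmp12 they were Ltf (0.451), Mir449b (0.478) and Ccl8 (0.484). Agr2 shared with Arg1 its high value in OVA replicate 3, 30.7 FPKM against 0.684 and 2.78 in the other OVA libraries. For Marco they were Kcne4 (0.129), Prx (0.139) and Mir3075 (0.145), for Fabp4 Swi5 (0.163), Glrx3 (0.168) and Abce1 (0.171), for Mrc1 Naip2 (0.0887), Ccdc80 (0.11) and Hist1h2ah (0.116), and for Msr1 Lmnb1 (0.107), 4930594C11Rik (0.115) and Tmem51 (0.116). Prx, periaxin, is also made by lung capillary endothelium, and Naip2 by macrophages. With 10 libraries in 3 groups, genes that follow only the group means can also lie close.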

How the data were processed

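RNA of whole lung from BALB/c mice was sequenced in 10 bulk libraries. The authors deposited 1 table of FPKM values per transcript (RefSeq rows and unnamed assembled models), made according to the submitters' processing notes with cutadapt 1.10, HISAT2 and StringTie 1.3.3b on mm10. The table holds no counts. The labels and the methods name different RNA kits, so whether the libraries kept strand is not settled here, and genes that overlap on opposite strands cannot be told apart. The FPKM of a gene also depend on the share of a library that ribosomal and other abundant RNA takes. No column of another series was present.

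The members were chosen, and the gene lists written, with earlier results of these data known. RefSeq rows were summed per symbol. Values were tested as log2(FPKM + 1), so changes of low genes are understated, with limma 3.58.1 (R 4.3.3, 3 group means over 10 libraries, intensity trend) on all 11205 sums, or 30194 rows, whose mean reached 1 FPKM, with Benjamini-Hochberg adjustment over all of them and a threshold of 0.05. Scores and ratios were computed with Python 3.11.15 (numpy 2.4.6, pandas 2.3.3) and drawn with matplotlib 3.10.9. The script was tested on simulated data. Fragments per row were estimated from the spacing of low values and RefSeq-matched transcript lengths, and the limit for a value of 0 was 3 fragments per library, averaged over a group; it covers counting error only. Named genes were all members, up to 4 genes per list with the largest called change in OVA against Saline and no overlap of groups (all genes of lists with 3 or fewer tested), and the 3 genes most like each of 6 members; other genes of the lists named in the text were chosen after their values were seen. Alternatives were rescaling to the upper quartile or the protein-coding total, quantile normalization, pseudocounts of 0.1 and 0.01, no filter or a mean of at least 5 FPKM, no trend, 2-group fits, each library left out, and the replicate number as a block. Sequences came from RefSeq tables of GRCm38.p6, the assembly that mm10 names; the positions of the members were matched by symbol for all 10. Of the list of macrophage genes outside the airspace, 1 result is not reported here.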

Additional observations from a re-analysis of the deposited data

Results flagged for a closer look

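The 4 Herb libraries were checked for a library far from the others in each of the 10 members, on deposited and on rescaled FPKM, 20 checks in all. In 1 of them the lowest library stood apart by Dixon's ratio. This was Fabp4 as deposited, at 2.246 FPKM in Herb replicate 2 beside 2.54 to 2.58 in the other 3, with a ratio of 0.876 above Dixon's critical value for 4 samples. Chance marks about 1 group in 20, and the library was not apart in Fabp4 after rescaling.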

How the results depend on the processing

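The direction of Arg1, Mmp12 and Msr1 against Saline and of Fabp4 and Cd68 in OVA against Saline was the same in every setting run, and the call of Mmp12 in Herb against Saline held in all of them. Over all settings the adjusted p in OVA against Saline ran from 0.0011 to 0.493 for Cd68, 0.00227 to 0.492 for Fabp4 and 0.00414 to 0.724 for Arg2, and in Herb against OVA from 0.00597 to 0.192 for Adgre1 and 0.0277 to 0.938 for Mrc1. Over all member fold changes, 456 settings kept direction and side of the threshold, 95 lost a call, 19 gained one and 63 reversed. Depth limits Marco, Arg1 and Mmp12 in Saline, which rest on 0 to about 30 fragments a library. The cause of the changes below was not tested, except that a stricter filter leaves fewer genes and a left-out library fewer samples.

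Against Saline, the members called in OVA were 5 on deposited FPKM, 3 with no filter on low values, 2 when the mean had to reach 5 FPKM, and 3 with no filter and rescaling. Member rows called were 4, against 1 after rescaling or quantile normalization and 2 with the stricter filter. Genes called were 6853 as deposited, 4004 (2087 higher, 1917 lower) after quantile normalization and 3180 with the stricter filter; rescaling gave 4617 (2695 higher, 1922 lower) and the protein-coding total 5226 (4239 higher, 987 lower). In Herb against OVA the 3 members called became 1 with the stricter filter and 0 by limma after rescaling, the protein-coding total, quantile normalization, no filter with rescaling, or adjacent models with rescaling (1 member had an unadjusted p under 0.05 after rescaling); member rows became 1 and, after each of the first 3 scalings, 0. Genes called there were 4982 as deposited and 90 rescaled, 621 with the protein-coding total, 157 by quantile normalization and 2722 with the stricter filter. In Herb against Saline the 4 members called became 1 with no filter and 2 with the stricter filter. The 1 member row called became 2 after rescaling, quantile normalization or a pseudocount of 0.1 or 0.01, and 4 with the protein-coding total, and the 2921 genes called became 1758 rescaled (1185 higher, 573 lower), 841 by quantile normalization and 1716 with the stricter filter; the split with the protein-coding total was 2065 higher and 320 lower. The type 2 minus resident difference of OVA and Saline was 1.65, and 3.48 with a pseudocount of 0.1.

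Fold changes that reversed in OVA against Saline were those of Mrc1, Pparg and Adgre1, with 0.63, 0.54 and 0.47 after rescaling (also with no filter, and with adjacent models), 0.99, 0.83 and 0.76 with the protein-coding total, and 1.06, 0.37 and 0.32 by quantile normalization. Arg2 reversed to 0.12 with the protein-coding total and Marco to 0.11 with no filter and rescaling. In Herb against OVA, Arg1, Msr1 and Pparg reversed to -0.21, -0.064 and -0.26 after rescaling (also with no filter), to -0.51, -0.23 and -0.26 with adjacent models and rescaling, to -0.36, -0.19 and -0.40 with the protein-coding total, and to -0.29, -0.042 and -0.23 by quantile normalization. Mrc1 had -0.12 and -0.17 in the last 2 settings and Cd68 -0.12 with the protein-coding total. In Herb against Saline, Arg2 and Pparg reversed to 0.32 and 0.29 after rescaling (also with no filter), 0.25 and 0.29 with adjacent models and rescaling, 0.45 and 0.42 with the protein-coding total, and 0.16 and 0.13 by quantile normalization.

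Replicate numbers did not pair the libraries (correlations of the deviations of same-numbered libraries from their group means, -0.00213 to 0.0878). The replicate block left 1 member row called in Herb against OVA and 1 member, 0 member rows and 1342 genes in Herb against Saline; Arg1 had -0.27 in Herb against OVA. The block with rescaling gave 2 member rows and 4310 genes in OVA against Saline, 0 members, 0 member rows and 5 genes in Herb against OVA, and 2 members, 0 member rows and 601 genes in Herb against Saline. Under it Mrc1, Pparg and Adgre1 had 0.63, 0.54 and 0.47 in OVA against Saline, Arg1, Msr1, Pparg and Cd68 -0.80, -0.17, -0.23 and -0.082 in Herb against OVA, and Arg2 and Pparg 0.32 and 0.31 in Herb against Saline.

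With each library left out in turn, the members called were 3 to 5 in OVA against Saline, 1 to 3 in Herb against OVA and 1 to 5 in Herb against Saline, the member rows 2 to 5, 0 to 3 and 0 to 1, and the genes 6143 to 6862, 3225 to 5069 and 897 to 3224, the lowest without Saline replicate 3, OVA replicate 1 and Saline replicate 2. Arg1 in Herb against OVA ran from -0.38 to 1.15, and Arg2 and Pparg in Herb against Saline from -0.21 to 0.15 and from -0.17 to 0.074.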
